A study of Mus musculus with 6 samples.

Results

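The enzymes that build sphingolipids were followed in gonadal white adipose tissue (GWAT) of obese mice with and without the lipid droplet protein Fsp27. The 10 genes were *Sptlc1*, *Sptlc2* and *Sptlc3* (subunits of serine palmitoyltransferase), *Cers2*, *Cers4*, *Cers5* and *Cers6* (ceramide synthases, formerly the *Lass* genes), *Degs1*, *Sgms1* and *Ugcg*. They were chosen by pathway, out of 19937 genes that have a probeset with 1 gene symbol, and the pathway itself was chosen on the increase of *Sptlc3* in these same arrays. Their differences between the genotypes are therefore given as a description with no p-value. Each of the 10 genes has 1 such probeset, so all 10 could be read.

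For each genotype there were 3 arrays of the type GeneChip Mouse Gene ST. The first was *ob/ob/Fsp27-/-*, which lacks both leptin and Fsp27, and the second was *ob/ob*, which lacks leptin alone, so leptin is missing on all 6 arrays. All mice were chow-fed males aged 4 months, and their background was C57BL/6J. By the methods of the study, the RNA of 3 mice was pooled for each array (9 mice per genotype), while the labels give each array its own number. Here n counts arrays, and how single mice vary cannot be read from such pools. Fsp27 was deleted in the whole body, not in adipocytes alone, and RNA came from the whole fat pad. In whole tissue, fewer cells of a type and less RNA per cell cannot be told apart.

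Sphingolipid synthesis starts at the endoplasmic reticulum, where serine palmitoyltransferase joins serine to a fatty acyl-CoA, usually palmitoyl-CoA. The product is reduced to sphinganine, a ceramide synthase adds a second fatty acid, and a desaturase turns the dihydroceramide into ceramide. Ceramide then receives a head group and becomes sphingomyelin or glucosylceramide, the parent of the complex glycosphingolipids. In fat, ceramides have been studied for their action against insulin signalling, and each ceramide synthase prefers acyl chains of a certain length.

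The sequence before the start of *Sptlc3* is poorer in CpG than that of the other genes at their first listed starts, so the 250 bases before the RefSeq starts of *Sptlc3*, *Sptlc2* and *Cers6* are shown, as the gene that was higher and a pair of genes that were lower in *ob/ob/Fsp27-/-* mice. Capitals mark each CpG dinucleotide. The sequences are those of RefSeq on GRCm38.p6, read in the direction of the gene, from chr2:139493663-139493912 (plus strand), chr12:87388356-87388605 (minus strand) and chr2:68861191-68861440 (plus strand).
Sptlc3: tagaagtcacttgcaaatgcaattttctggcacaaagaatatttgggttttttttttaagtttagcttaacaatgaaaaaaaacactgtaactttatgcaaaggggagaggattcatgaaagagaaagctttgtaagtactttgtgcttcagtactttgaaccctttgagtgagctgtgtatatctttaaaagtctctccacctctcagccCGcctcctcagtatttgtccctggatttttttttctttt
Sptlc2: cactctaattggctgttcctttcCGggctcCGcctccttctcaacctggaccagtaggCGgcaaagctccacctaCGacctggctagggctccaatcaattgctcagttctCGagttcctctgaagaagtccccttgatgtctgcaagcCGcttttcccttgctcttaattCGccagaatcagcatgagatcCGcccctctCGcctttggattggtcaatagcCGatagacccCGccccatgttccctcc
Cers6: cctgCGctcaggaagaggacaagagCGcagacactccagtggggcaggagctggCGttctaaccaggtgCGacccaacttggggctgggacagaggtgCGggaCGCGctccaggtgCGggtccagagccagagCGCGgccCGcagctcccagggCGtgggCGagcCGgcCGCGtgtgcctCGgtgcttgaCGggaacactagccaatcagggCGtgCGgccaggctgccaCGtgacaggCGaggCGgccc

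The window of *Sptlc3* holds 1 CpG and has a GC content of 35.6%, that of *Sptlc2* holds 11 CpGs (55.2% GC) and that of *Cers6* 23 CpGs (70.4% GC). Over all 32851 annotated starts, the median was 6 CpGs, with quartiles at 2 and 16. The other 7 genes had from 11 to 43 CpGs at their first listed start, with *Ugcg* at the top. Genes whose values overlapped between the genotypes had from 11 (*Cers4*) to 24 (*Cers2*). That lies within the range of the genes that were lower, from 11 (*Sptlc2*) to 43 (*Ugcg*). *Cers2* and *Sgms1* have several starts, and the windows at the later starts of *Sgms1* held 41, 3 and 8 CpGs and that at the second start of *Cers2* held 5. Which start is used in GWAT is not known from these arrays.

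**Figure D1:**
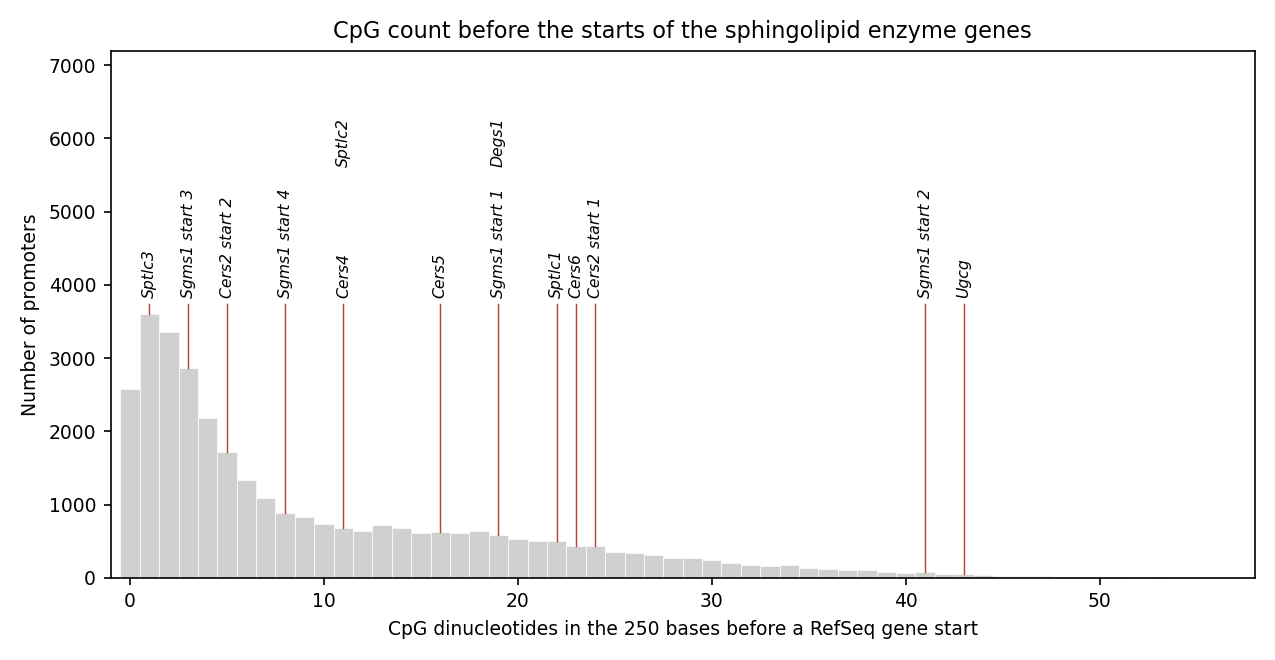
Number of RefSeq promoters (y axis) by their count of CpG dinucleotides in the 250 bases before the start (x axis), with lines at the starts of the 10 enzyme genes. *Sptlc3* lies at 1 CpG, where 18.8% of promoters have as many or fewer, and *Ugcg* lies at 43.

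Short promoter motifs were searched on both strands of the same windows. The window of *Sptlc3* held none of the 4 motifs searched, and no gene held a TATA box (letters TATAAA), which 12.4% of all windows hold. A GC box (GGGCGG) was found for *Sptlc1*, *Sptlc2*, *Cers4*, *Cers5* and *Ugcg* and at the first starts of *Cers2* and *Sgms1*, against 32.7% of all windows. A CCAAT box (CCAAT) was found for *Sptlc1*, *Sptlc2*, *Cers6*, the first start of *Cers2* and the fourth start of *Sgms1* (33.8% of all windows). The E-box CACGTG was found for the first start of *Cers2*, *Cers6* and *Degs1* (6.02%), and not at the second start of *Cers2*. The second start of *Sgms1* also held a GC box. These matches are descriptions of letters and not of bound sites.

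*Sptlc3* encodes an alternative catalytic subunit of serine palmitoyltransferase, which widens the range of fatty acids the enzyme accepts. Its RMA values, which are normalized probeset intensities on the log2 scale, were 8.69, 8.86 and 9.63 in *ob/ob/Fsp27-/-* mice and 5.35, 5.89 and 5.13 in *ob/ob* mice. The genotypes were far apart, with a gap of 2.80 between the nearest arrays. The mean was 9.06 ± 0.50 (SD, n = 3 arrays) in *ob/ob/Fsp27-/-* and 5.46 ± 0.39 (SD, n = 3) in *ob/ob* mice. The log2 difference between the means was 3.60, with a standard error (SE) of 0.28, or 12.1-fold, and it ranked 4 among the increases of all 19937 genes. All 3 *ob/ob* values lay below the medians of their arrays, which were 6.10, 6.07 and 6.06. Little signal stands over background at that level, so the size of the change is less certain than its direction.

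The other catalytic subunit went the opposite way. *Sptlc2*, the subunit found in most tissues, read 9.33, 9.11 and 9.19 in *ob/ob/Fsp27-/-* mice and 10.26, 10.10 and 9.99 in *ob/ob* mice. Every *ob/ob/Fsp27-/-* array lay below every *ob/ob* array, and the log2 difference was −0.90 (SE 0.10), a 1.87-fold lower level. *Sptlc1*, the subunit that both catalytic partners need, read 8.60, 8.74 and 8.66 in *ob/ob/Fsp27-/-* and 8.60, 8.75 and 8.49 in *ob/ob* mice. These values overlapped, with a log2 difference of 0.06 (SE 0.09). The 3 subunit genes thus gave 1 higher, 1 lower and 1 overlapping pattern. Probes differ in brightness, so the arrays cannot say which catalytic subunit was the more abundant in either genotype.

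**Figure D2:**
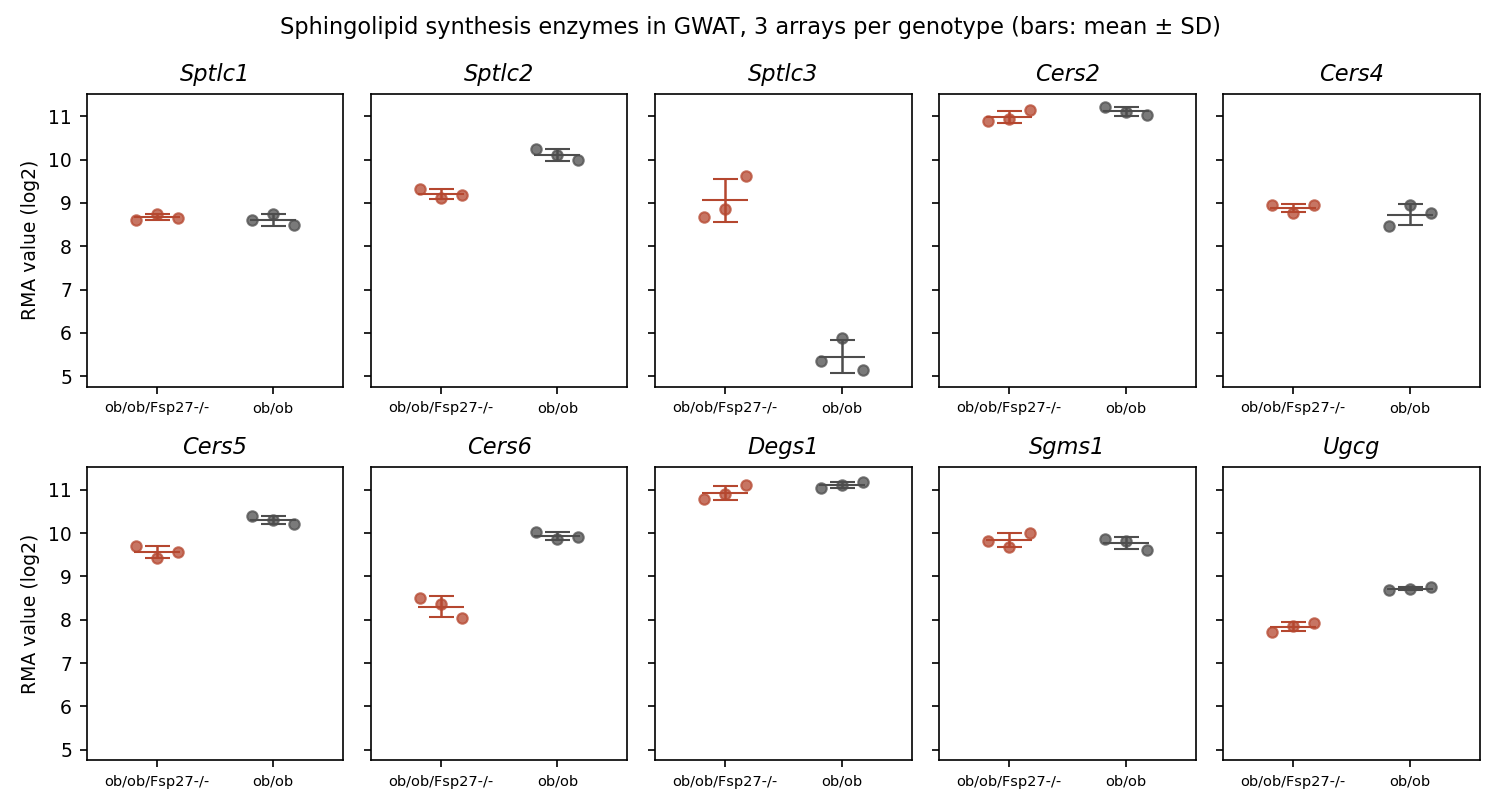
RMA values (log2, y axis) of the 10 enzyme genes, with 1 point per array, *ob/ob/Fsp27-/-* in red and *ob/ob* in grey, and bars at the mean ± SD of 3 arrays. The genotypes do not overlap for *Sptlc2*, *Sptlc3*, *Cers5*, *Cers6* and *Ugcg*, and they overlap for the other 5 genes.

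Among the ceramide synthases, the pair that makes ceramide with palmitic acid was lower in *ob/ob/Fsp27-/-* mice. *Cers6* read 8.51, 8.38 and 8.04 in *ob/ob/Fsp27-/-* and 10.03, 9.86 and 9.91 in *ob/ob* mice. The gap between the nearest arrays was 1.36, and the log2 difference was −1.63 (SE 0.13), or 3.09-fold lower. This was the deepest decrease of the 10 genes. *Cers5*, which has the same chain preference, read 9.70, 9.44 and 9.56 in *ob/ob/Fsp27-/-* and 10.39, 10.30 and 10.20 in *ob/ob* mice. The genotypes did not overlap here either, with a log2 difference of −0.73 (SE 0.10).

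Of the ceramide synthases among the enzyme genes, those for longer chains overlapped between the genotypes. *Cers2*, which makes ceramides with very long chains, read 10.88, 10.94 and 11.14 in *ob/ob/Fsp27-/-* and 11.22, 11.10 and 11.02 in *ob/ob* mice, a log2 difference of −0.13 (SE 0.10). *Cers4*, which uses stearoyl-CoA and somewhat longer substrates, read 8.95, 8.77 and 8.94 in *ob/ob/Fsp27-/-* and 8.46, 8.94 and 8.77 in *ob/ob* mice, a log2 difference of 0.16 (SE 0.13). The *ob/ob* arrays of *Cers4* were spread more widely (SD 0.24) than the *ob/ob/Fsp27-/-* arrays (SD 0.10), with array 1 the lowest of the 6. Without that array the log2 difference of *Cers4* was 0.03.

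The next steps divided in the same manner. *Degs1*, the desaturase that yields ceramide, read 10.79, 10.89 and 11.10 in *ob/ob/Fsp27-/-* and 11.04, 11.10 and 11.18 in *ob/ob* mice, and *ob/ob/Fsp27-/-* array 3 reached into the *ob/ob* range. Its log2 difference was −0.18 (SE 0.10). *Sgms1*, the sphingomyelin synthase of the Golgi, read 9.82, 9.69 and 10.01 in *ob/ob/Fsp27-/-* and 9.87, 9.83 and 9.62 in *ob/ob* mice, a log2 difference of 0.06 (SE 0.11). *Ugcg*, glucosylceramide synthase, read 7.73, 7.87 and 7.94 in *ob/ob/Fsp27-/-* and 8.69, 8.72 and 8.75 in *ob/ob* mice. Its genotypes did not overlap, and its log2 difference was −0.87 (SE 0.08), or 1.83-fold lower. Of these head-group enzymes, *Ugcg* was thus lower and *Sgms1* overlapped.

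Genes were called in a limma fit over all 22961 probesets with a symbol, where the adjusted p was below 0.05 and the log2 difference was 0.5 or more in size. Of the 10 genes, 1 was called higher (*Sptlc3*) and 4 were called lower (*Sptlc2*, *Cers5*, *Cers6* and *Ugcg*) in *ob/ob/Fsp27-/-* mice. Over all genes, 9.58% were called higher and 10.8% lower, 20.4% in either direction. The same 5 genes were those whose genotypes did not overlap, which held for 46.0% of all genes (25.3% with *ob/ob/Fsp27-/-* above and 20.7% with it below). The median log2 difference of the 10 genes was −0.15, and that of all genes was 0.06. Since the pathway was chosen on this comparison, these shares are given as a description only. With any 1 array left out, the log2 difference lay between 3.32 and 3.82 for *Sptlc3*, between −0.97 and −0.83 for *Sptlc2*, between −0.80 and −0.67 for *Cers5*, between −1.73 and −1.49 for *Cers6* and between −0.92 and −0.82 for *Ugcg*.

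**Figure D3:**
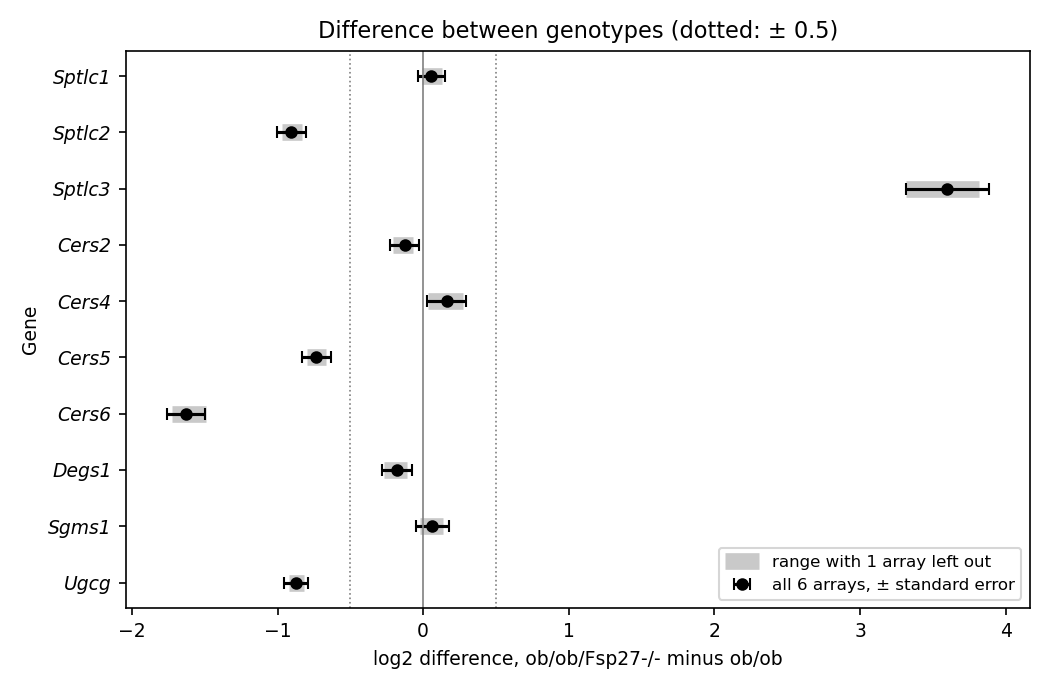
Log2 difference (x axis, *ob/ob/Fsp27-/-* minus *ob/ob*) of each enzyme gene (y axis), with black points and standard errors from all 6 arrays and grey bars for the range with 1 array left out. *Sptlc3* stands at 3.60, *Cers6*, *Sptlc2*, *Ugcg* and *Cers5* lie below the dotted line at −0.5, and the other 5 lie between the dotted lines.

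Markers of several cell types also differed between the genotypes. All 14 macrophage markers were called lower in *ob/ob/Fsp27-/-* mice, and the mean RMA value of the list was 8.07, 8.31 and 8.31 in *ob/ob/Fsp27-/-* and 11.17, 11.00 and 10.79 in *ob/ob* mice. Of 9 markers of stromal progenitors, 5 were called lower. Of 13 measured white adipocyte markers, 8 were called higher and none lower, with a list mean of 12.09, 12.12 and 12.14 in *ob/ob/Fsp27-/-* and 10.99, 11.47 and 11.70 in *ob/ob* mice. The list of brown and beige adipocytes had 7 of 11 called higher, with means between 7.89 and 8.05 in *ob/ob/Fsp27-/-* and between 5.91 and 6.35 in *ob/ob* mice. *Ucp1* (0.40, SE 0.33, limma adjusted p = 0.415), *Otop1*, *Kng2* (−0.60, SE 0.21) and *Zic1* of that list overlapped between the genotypes and were not called. Of 8 endothelial markers 4 were called higher, of 2 measured blood cell markers 1 was, and none of 6 T cell, 6 B cell and 8 mesothelial markers was called. Among *ob/ob* mice, array 1 had the highest macrophage and the lowest white adipocyte mean. Of the enzyme genes, *Sptlc2*, *Cers2*, *Cers5*, *Cers6* and *Sgms1* had their highest *ob/ob* value on that array, *Cers4*, *Degs1* and *Ugcg* their lowest, and *Sptlc1* and *Sptlc3* lay between. The part of these cell types in the changes of the enzyme genes was not tested. All 10 measured markers of the epididymis, which adjoins this fat pad, lay below the array median on all 6 arrays.

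**Figure D4:**
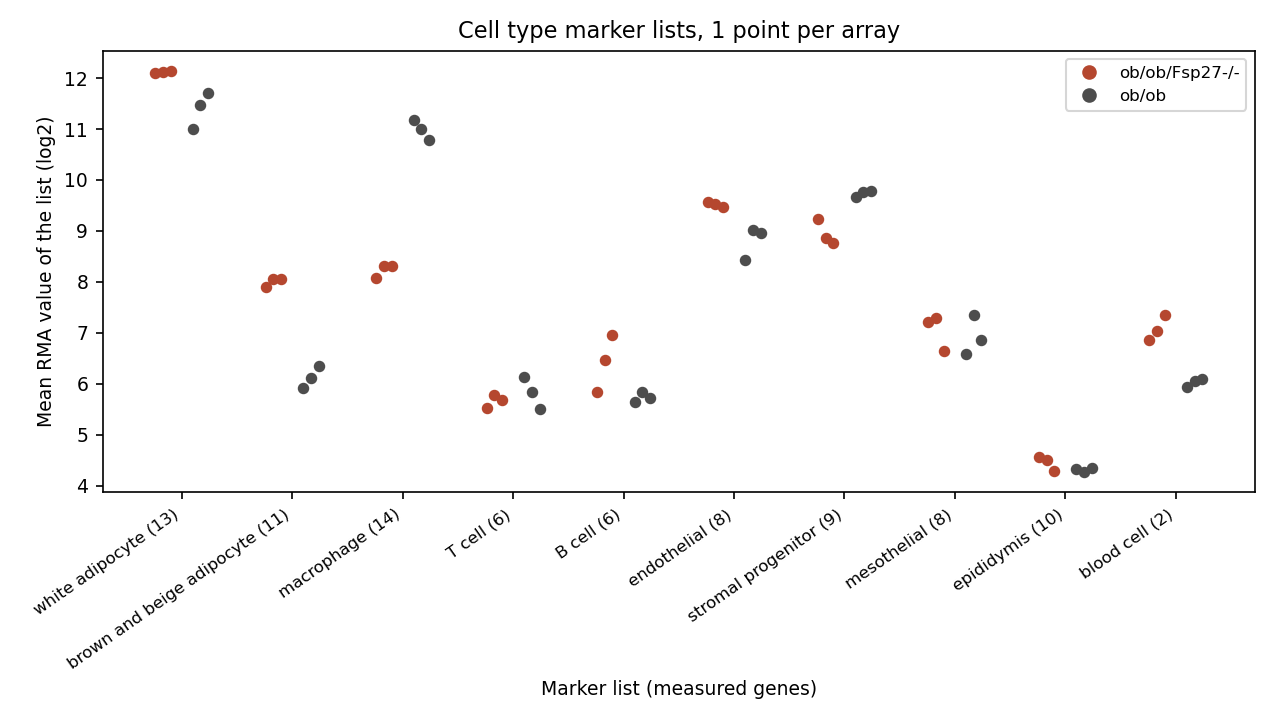
Mean RMA value (log2, y axis) of each cell type marker list (x axis, measured genes in brackets), with 1 point per array, *ob/ob/Fsp27-/-* in red and *ob/ob* in grey. The macrophage list lies near 8 in *ob/ob/Fsp27-/-* and near 11 in *ob/ob* mice, and the adipocyte lists lie higher in *ob/ob/Fsp27-/-* mice.

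The array medians were close, as the quantile normalization of the deposited values makes them, so they do not check array quality. Those of the 3 *ob/ob/Fsp27-/-* arrays were 6.10, 6.08 and 6.02. *Cidec*, the gene of Fsp27, read 11.34, 11.51 and 11.53 in *ob/ob/Fsp27-/-* and 11.49, 11.78 and 11.98 in *ob/ob* mice, a log2 difference of −0.29 (SE 0.13, limma adjusted p = 0.157). The annotation does not say where its probes lie relative to the deleted part, so this value does not check the genotype.

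The genes around these enzymes were taken from 11 lists of the wider pathway. Of 74 listed genes, 71 have a probeset with 1 symbol, and in *ob/ob/Fsp27-/-* mice 13 of them passed as higher and 19 as lower (all genes 9.58% and 10.8%). The groups differed in direction. All 3 genes of serine synthesis were higher. On the list of glycosphingolipid breakdown 6 of 12 genes were lower, and 4 of 10 on that of glycosphingolipid synthesis, with none called higher. The remaining lists held few calls or calls in both directions. The median log2 difference over the 71 genes was −0.02 (all genes 0.06).

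**Figure D5:**
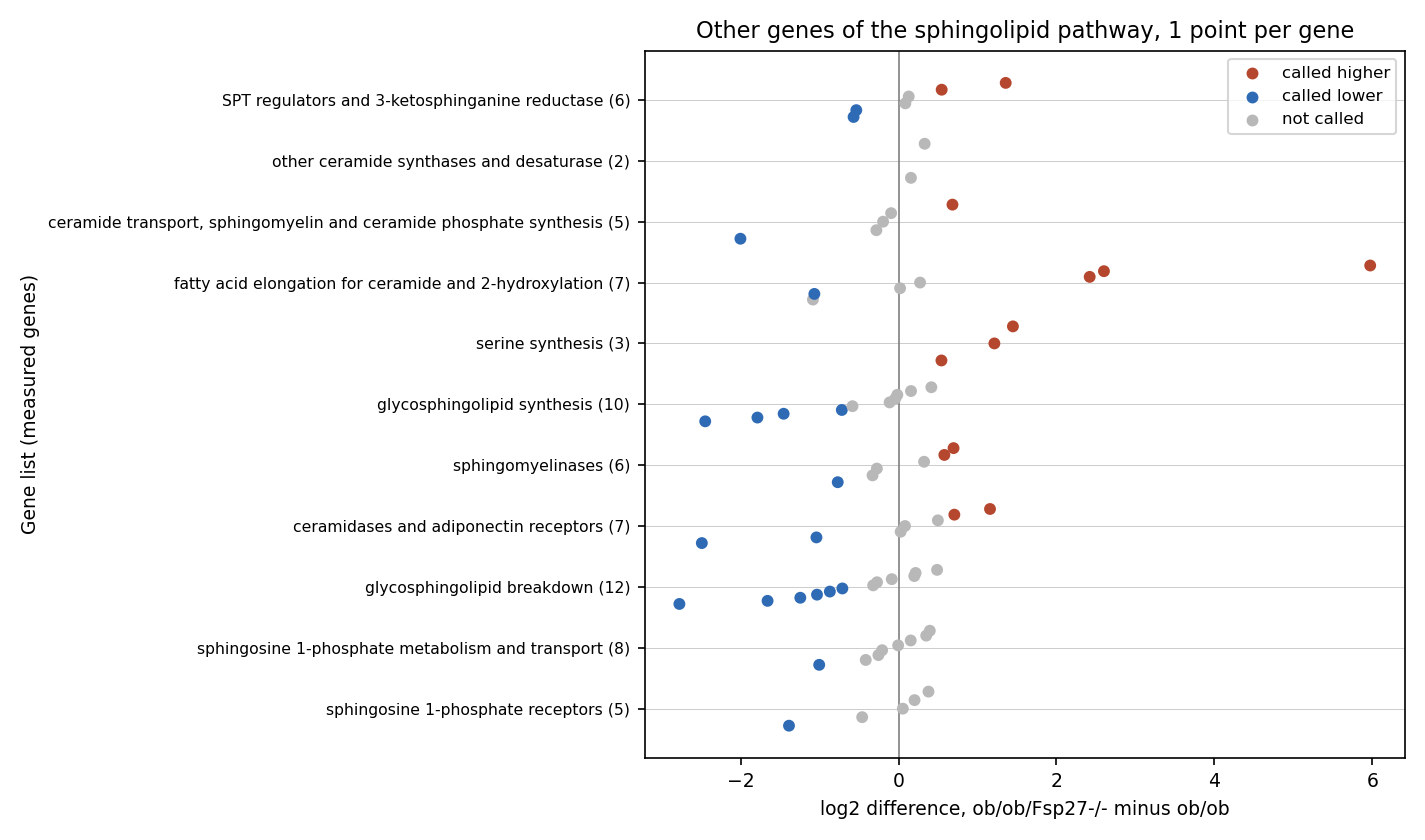
Log2 difference (x axis, *ob/ob/Fsp27-/-* minus *ob/ob*) of 71 other genes of the sphingolipid pathway, 1 point per gene, in 11 lists (y axis, measured genes in brackets), red for called higher, blue for called lower and grey for not called. All points of serine synthesis are red, and the lists of glycosphingolipid synthesis and breakdown hold blue and grey points only.

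Around serine palmitoyltransferase, 2 of 6 genes were higher and 2 lower. *Ormdl3*, one of the ORMDL proteins that restrain the enzyme, read 9.05, 9.39 and 8.97 in *ob/ob/Fsp27-/-* and 7.36, 7.85 and 8.12 in *ob/ob* mice. The genotypes did not overlap, and its log2 difference was 1.36 (SE 0.21, limma adjusted p = 0.00292). Its relative *Ormdl1* was lower, with a log2 difference of −0.53 (SE 0.13, limma adjusted p = 0.0196), and *Ormdl2* did not pass (0.09, SE 0.10). *Sptssa*, a small subunit that activates the enzyme, had a log2 difference of −0.57 (SE 0.09, limma adjusted p = 0.00346). *Kdsr*, the reductase of the second step, had a log2 difference of 0.55 (SE 0.09, limma adjusted p = 0.00444). The calls of the last 3 lie near the fold threshold. Without *ob/ob* array 1, *Kdsr* (0.49) and *Ormdl1* (−0.49) were not called, and neither was *Ormdl1* without *ob/ob* array 2 (−0.45), nor without array 1 of *ob/ob/Fsp27-/-* mice (−0.47). With array weights, *Kdsr* (0.49) also fell short.

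Serine is the other substrate of the first step. *Phgdh*, which takes the first step from glycolysis towards serine, read 9.14, 9.45 and 9.64 in *ob/ob/Fsp27-/-* and 7.38, 8.10 and 8.41 in *ob/ob* mice, with *ob/ob* array 1 the lowest. The log2 difference was 1.45 (SE 0.26, limma adjusted p = 0.00602). *Psat1*, the aminotransferase that follows, had a log2 difference of 1.21 (SE 0.16, limma adjusted p = 0.00173), and *Psph*, the last phosphatase, 0.54 (SE 0.09, limma adjusted p = 0.00413). *Psph* missed the fold threshold without *ob/ob* array 1 (0.48).

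Of 7 genes that lengthen fatty acids or hydroxylate those of ceramide, 3 were higher and 1 was lower. The elongases also serve lipids other than ceramide. *Elovl3*, an elongase that is also in the list of brown and beige adipocyte markers, had a log2 difference of 5.97 (SE 0.12, limma adjusted p = 7.06e-06). *Elovl4*, an elongase for very long chains, had 2.42 (SE 0.19, limma adjusted p = 0.000189) and *Elovl7* 2.60 (SE 0.31, limma adjusted p = 0.00102). The *ob/ob* values of *Elovl3* and *Elovl7* lay below the array medians. *Elovl1*, which supplies very long chains to *Cers2*, read 9.30, 9.34 and 9.33 in *ob/ob/Fsp27-/-* and 10.49, 10.40 and 10.28 in *ob/ob* mice, so the genotypes were apart. Its log2 difference was −1.07 (SE 0.08, limma adjusted p = 0.000193). *Elovl6*, which extends palmitic to stearic acid, had a log2 difference of −1.08 but an SE of 0.42 and a limma adjusted p = 0.0967. The 3 *ob/ob* arrays of *Elovl6* had an SD of 0.76, and without *ob/ob* array 1 the gene was called (−1.49, limma adjusted p = 0.0205).

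Of 5 genes that carry ceramide or attach a phosphorus-containing head group, 1 was higher and 1 lower. *Cerk*, ceramide kinase, read 7.26, 7.56 and 7.14 in *ob/ob/Fsp27-/-* and 9.51, 9.28 and 9.17 in *ob/ob* mice. The log2 difference was −2.00 (SE 0.14, limma adjusted p = 0.000128). *Sgms2*, the sphingomyelin synthase of the plasma membrane, had a log2 difference of 0.68 (SE 0.11, limma adjusted p = 0.00339). *Cert1*, the ceramide transfer protein (−0.20, SE 0.11, limma adjusted p = 0.226), and *Samd8* (−0.28, SE 0.10, limma adjusted p = 0.0782) did not pass. Neither did the other desaturase and ceramide synthase measured, *Degs2* (0.33, SE 0.13, limma adjusted p = 0.101) and *Cers3* (0.16, SE 0.07, limma adjusted p = 0.144), both below the array median on all 6 arrays. At these low values, every *ob/ob/Fsp27-/-* array of *Cers3* lay above every *ob/ob* array.

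Glycosphingolipid synthesis, whose list is not limited to genes downstream of *Ugcg*, had 4 of 10 genes lower and none higher. With no fold threshold, 1 gene of this list was higher and 4 were lower. *B4galt5* and *B4galt6*, the enzymes that turn glucosylceramide into lactosylceramide, had log2 differences of −1.79 (SE 0.17, limma adjusted p = 0.000414) and −1.45 (SE 0.09, limma adjusted p = 9.45e-05). *B4galnt1*, which builds complex gangliosides, read 6.95, 7.07 and 7.32 in *ob/ob/Fsp27-/-* and 9.64, 9.79 and 9.26 in *ob/ob* mice, the deepest change of the list. Its log2 difference was −2.45 (SE 0.16, limma adjusted p = 0.000108). *A4galt*, the globotriaosylceramide synthase, had −0.72 (SE 0.09, limma adjusted p = 0.00109). *St3gal5*, which makes the ganglioside GM3, had a log2 difference of −0.58 and did not pass (SE 0.27, limma adjusted p = 0.159). The *ob/ob* arrays of *St3gal5* had an SD of 0.56, and without *ob/ob* array 3 it was called (−0.87, limma adjusted p = 0.0194).

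On the list of glycosphingolipid breakdown, with 12 measured genes and most of them lysosomal, 6 were lower and none was higher. It includes *Npc1* and *Npc2*, which move cholesterol out of lysosomes and do not break down glycosphingolipids. *Npc1* was among the 6 lower genes (−0.87, SE 0.10, limma adjusted p = 0.00105), and *Npc2* was not called. *Gla*, alpha-galactosidase A, read 7.19, 7.03 and 7.32 in *ob/ob/Fsp27-/-* and 10.36, 10.04 and 9.47 in *ob/ob* mice, a log2 difference of −2.77 (SE 0.22, limma adjusted p = 0.000192). *Hexa*, the alpha subunit of beta-hexosaminidase, had −1.66 (SE 0.11, limma adjusted p = 0.000109), *Glb1*, beta-galactosidase, −1.24 (SE 0.08, limma adjusted p = 9.73e-05) and *Galc*, galactosylceramidase, −1.03 (SE 0.14, limma adjusted p = 0.00192). *Gm2a*, the activator protein of the hexosaminidase, had a log2 difference of 0.22 (SE 0.07, limma adjusted p = 0.0621) and did not pass. *Gba2*, the non-lysosomal glucosylceramidase, had 0.49 (SE 0.10, limma adjusted p = 0.0114) and was not called. It is named after its values were seen, because it was called higher when *ob/ob* array 2 was left out, and likewise when array 1 or array 3 of *ob/ob/Fsp27-/-* mice was, and with each array centred on its median. Lysosomal enzymes are abundant in macrophages, whose 14 markers were all lower on the same arrays, and the part of macrophages in these decreases was not tested.

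Called genes of enzymes that release ceramide from sphingomyelin were higher, and those of enzymes that split ceramide went both ways. Of 6 genes of sphingomyelinases and related proteins, *Smpd2*, a neutral sphingomyelinase, had a log2 difference of 0.70 (SE 0.11, limma adjusted p = 0.00382). *Smpd1*, the acid sphingomyelinase, had 0.58 (SE 0.14, limma adjusted p = 0.0197). The related gene *Smpdl3a*, whose product acts on nucleotides and is not a sphingomyelinase, was lower (−0.77, SE 0.14, limma adjusted p = 0.00579). The call of *Smpd1* was lost without *ob/ob* array 1 (0.43) or *ob/ob* array 2 (0.61, limma adjusted p = 0.0539), and likewise without array 2 (0.58, limma adjusted p = 0.0649) or array 3 (0.56, limma adjusted p = 0.0612) of *ob/ob/Fsp27-/-* mice.

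Among ceramidases and the adiponectin receptors, which have ceramidase activity, 2 of 7 genes were higher and 2 lower. *Acer3*, an alkaline ceramidase, read 6.29, 6.11 and 6.84 in *ob/ob/Fsp27-/-* and 9.20, 9.06 and 8.45 in *ob/ob* mice, a log2 difference of −2.49 (SE 0.25, limma adjusted p = 0.000487). *Asah1*, the acid ceramidase of the lysosome, had −1.04 (SE 0.15, limma adjusted p = 0.00234). *Acer2*, the alkaline ceramidase of the Golgi, had a log2 difference of 1.16 (SE 0.26, limma adjusted p = 0.0151), and *Adipor2* 0.71 (SE 0.13, limma adjusted p = 0.00553). *Acer2* was not called without *ob/ob/Fsp27-/-* array 2 (1.15, limma adjusted p = 0.0564) or array 3 (limma adjusted p = 0.0517). *Adipor1* did not pass (0.08, SE 0.08, limma adjusted p = 0.51). *Asah2*, the neutral ceramidase, missed the fold threshold narrowly (0.50 after rounding, SE 0.09) and was called when *ob/ob* array 3 (0.58) was left out, when array 1 of *ob/ob/Fsp27-/-* mice (0.51) was, with each array centred on its median (0.51) and with array weights (0.52).

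Sphingosine 1-phosphate, the signalling lipid at the end of the pathway, had few calls. Of 8 genes of its metabolism and transport, *Sgpp1*, a phosphatase that returns it to sphingosine, was the only call, at 8.83, 8.37 and 8.16 in *ob/ob/Fsp27-/-* and 9.71, 9.48 and 9.17 in *ob/ob* mice. It was 2.01-fold lower in *ob/ob/Fsp27-/-* mice (SE 0.20 on the log2 scale, limma adjusted p = 0.00916). *Sgpl1*, the lyase that cleaves it, had −0.25 (SE 0.12, limma adjusted p = 0.155). Of its 5 receptors, *S1pr2* read 7.13, 7.02 and 7.34 in *ob/ob/Fsp27-/-* and 8.83, 8.33 and 8.49 in *ob/ob* mice, a log2 difference of −1.39 (SE 0.15, limma adjusted p = 0.000666). *S1pr1*, an endothelial and lymphocyte receptor, had 0.38 (SE 0.15, limma adjusted p = 0.114) and *S1pr3* −0.46 (SE 0.17, limma adjusted p = 0.0811). Without *ob/ob* array 2, *S1pr3* was called (−0.64, limma adjusted p = 0.0187).

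The genes whose pattern over the 6 arrays was most like that of *Sptlc3* were *Shisa6*, *Dnajc6*, *Mc5r*, *Car1* and *Ddo*. Likeness was the root mean square distance between values centred on each gene's mean, and it was 0.23, 0.28, 0.34, 0.40 and 0.45 on the log2 scale in that order. The values were not scaled, so the measure mostly finds genes with an increase of similar size. The 5 genes ranked 7, 6, 8, 11 and 16 among the increases of all genes, and *Sptlc3* ranked 4. *Shisa6* read 8.30, 8.15 and 8.57 in *ob/ob/Fsp27-/-* and 4.88, 5.28 and 4.72 in *ob/ob* mice. *Mc5r*, a melanocortin receptor, read 8.33, 8.61 and 9.80 in *ob/ob/Fsp27-/-* and 5.14, 6.07 and 5.77 in *ob/ob* mice. *Sptlc3* was highest on *ob/ob/Fsp27-/-* array 3, as were *Shisa6*, *Mc5r*, *Car1* and *Ddo*, while *Dnajc6* was not. The 5 genes nearest to *Sptlc3* were picked for likeness to a gene that was itself chosen for its increase, so they are a description only.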

How the data were processed

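GWAT RNA was measured on 6 arrays, 3 per genotype. The authors made the log2 values they deposited with Robust Multi-array Average (RMA), with background adjustment and quantile normalization. Its version is not given in the sources used here. Of 34760 probesets, 22961 carry 1 gene symbol or several and entered the test. Where a gene had several probesets with 1 symbol, that with the highest mean was taken. Symbols were brought up to date by Entrez number (21553 probesets). Probesets were not filtered on detection, which the study did from probe-level data.

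The linear models of limma 3.58.1 (lmFit and eBayes, under R 4.3.3) took genotype as the only term. Differences are *ob/ob/Fsp27-/-* minus *ob/ob*, p-values were adjusted by Benjamini-Hochberg over every probeset that entered, and the thresholds were those of the study. The procedure was tested on simulated data. The 10 genes, the pathway lists, the markers and the rule for named genes were chosen with earlier results of these data known. Named genes were the 10 enzymes, *Cidec*, up to 4 called genes per direction and 2 uncalled genes per list, and the 5 genes nearest to *Sptlc3*. *Gba2*, *Npc1* and the uncalled brown and beige markers were named outside this rule, after their values were seen. Arrays have no read depth, and their number limits the precision. The pooling of mice and the background strain come from the methods of the study. The labels give no batch. Whether the pools came from separate litters or batches is not stated, so p-values measure only the spread between these arrays. RefSeq promoters were matched by symbol for 10 of 10 enzymes. Alternatives were filters on low values, other scalings, variance models, array weights, averaging the probesets of a gene, other fold thresholds and leaving out each array. The plots were made in matplotlib 3.10.9 (python 3.11.15).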

Additional observations from a re-analysis of the deposited data

How the results depend on the processing

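For *ob/ob/Fsp27-/-* against *ob/ob* mice, the enzyme genes called numbered 1 higher and 4 lower under every alternative run except the fold threshold of 1 on the log2 scale, which left 1 lower, *Cers6*. With 1 array left out they ranged from 1 to 1 and from 4 to 4. For the wider pathway, genes called higher ranged from 10 to 15 and lower from 18 to 20 with 1 array left out, and for all genes from 1620 to 2120 and from 1961 to 2346. With the fold threshold of 1, 7 genes of the wider pathway were higher, and of all genes 652 were higher and 955 lower. With no fold threshold, 2936 genes were higher. Of the 66 genes recomputed one by one, no called value changed sign, and 12 values lost and 7 gained a call, each given beside its gene. The genes named outside the rule were not among the 66, and the settings in which *Gba2* gained a call are given beside it. The median log2 difference of all genes was 0.06, 0.07 with each array centred on its median and 0.02 with cyclic loess. No paired analysis was possible because the labels give each array its own number and no number is shared between the genotypes. Values below the array medians carry little signal over background, which limits the size of the change of *Sptlc3*.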
